A study of Mus musculus with 6 samples.

Results

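The semaphorins, ephrins and their receptors are families of guidance molecules, and their mRNA was measured in oligodendrocyte progenitor cells (OPCs), glia that mature into the myelin-forming oligodendrocytes of the brain. The families were chosen with earlier results of these data known. Within them genes were taken by symbol alone: every semaphorin (Sema), plexin (Plxn), neuropilin (Nrp1 and Nrp2), Eph receptor (Epha, Ephb) and ephrin (Efna, Efnb) of the deposited table. They came to 53 of 18211 genes, made up of 20 semaphorins, 11 plexins and neuropilins, 14 Eph receptors and 8 ephrins. The study asked how the OPC transcriptome changes when a DISC1 transcript lacking exon 3 is favoured, and compared 3 libraries from DISC1-Δ3 mice with 3 from wildtype mice. Every mouse was C57BL/6, received tamoxifen by gavage on 4 consecutive days from P4 to P7, and was killed at P7, when cells were collected on plates coated with an antibody to Pdgfrα. DISC1-Δ3 stands for NG2-CreERTM:DISC1 exon3 fl/+ animals, in which a tamoxifen-activated Cre expressed from the promoter of NG2 (gene Cspg4) removes exon 3 from a single floxed Disc1 allele. NG2 is known from pericytes as well as from OPCs. The labels do not say whether wildtype mice carried the floxed allele, nor whether a library came from 1 animal or from several, so p-values measure only the spread between these libraries.

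Semaphorins bind plexins, and the secreted class 3 members do so mostly through a neuropilin that holds the ligand. Plexins act through small GTPases and so collapse or steer a cell process. Ephrins sit on the surface of 1 cell and bind Eph receptor tyrosine kinases on another, ephrin-A through a lipid anchor and ephrin-B through a transmembrane protein that itself signals backwards. In the oligodendrocyte lineage both systems are known for guiding the migration of progenitors and for influencing where processes extend and when cells differentiate.

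Total reads on genes ran from 13716619 to 16417219 in the wildtype libraries and from 14229954 to 16138674 in the DISC1-Δ3 libraries. Disc1 itself had 3.51, 3.34 and 3.81 RPKM (reads scaled to transcript length and library total) in wildtype against 2.86, 2.44 and 2.85 in DISC1-Δ3, and fell by 0.45 on the log2 scale (adjusted p = 0.000528, edgeR). This is a whole-gene value and does not measure exon 3. Markers of OPCs were present, with a mean Pdgfra of 17.5 RPKM in wildtype, but the microglial genes Csf1r and C1qc stood at 1870 and 3270 RPKM there. The 10 OPC markers summed to 534 to 556 RPKM in wildtype and 680 to 702 in DISC1-Δ3, where 6 were higher and 1 was lower. All 14 microglial markers were lower, with sums of 17000 to 17300 against 12000 to 12400 RPKM. Of 10 neuronal markers 8 were higher (357 to 359 against 427 to 449 RPKM), and so were 8 of 10 pericyte and smooth muscle markers (172 to 183 against 238 to 247). Of 10 endothelial markers 4 were higher and 1 lower (220 to 228 against 251 to 260), of 10 astrocyte markers 2 were higher and 6 lower (2040 to 2090 against 1980 to 1990), and 6 of 9 tested mature oligodendrocyte markers (2520 to 2550 against 2310 to 2350) and 5 of 7 markers of newly formed oligodendrocytes (554 to 568 against 518 to 540) were lower. In bulk RNA fewer cells of a type and less RNA per cell cannot be told apart, and the part of these shifts in the results on guidance genes was not tested.

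Guidance genes changed in both directions. The 3 ephrins that passed were higher in DISC1-Δ3, as were 4 of the 5 Eph receptors that passed, 2 of 4 class A plexins and Nrp2. The 3 of 6 class 4 semaphorins and the 2 of 3 class B plexins that passed were lower. In either direction 37.5% of ephrins and 50.0% of tested Eph receptors passed, against a background of 39.9% of all tested genes. The share was 50.0% for class A plexins and for class 4 semaphorins, and 66.7% for class B plexins. With so few genes in each family these shares are coarse. Of the 53 genes 47 reached an RPKM of 0.5 in at least 3 of the 6 libraries and were tested, and 23 of these passed an adjusted p of 0.05 in edgeR's quasi-likelihood test (48.9%, against a background of 39.9% of all 13792 tested genes). Of these 15 were higher (31.9%, background 20.4%) and 8 lower (17%, background 19.5%). Of those with changes of 0.5 log2 units or more, 8 were higher (background 7.48%) and 3 lower (background 6.15%). The median log2 fold change of the 47 genes was 0.12, against 0.01 over all tested genes, and the median size was 0.23 against 0.19. For 28 of the 47 the RPKM of the 2 genotypes did not overlap (background 52.0%). Epha7 and Epha8 reached the minimum in DISC1-Δ3 libraries only, so they could enter the test only as genes higher there. The 6 untested genes were Sema3a, Sema3e, Epha1, Epha3, Epha6 and Epha10.

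**Figure D1:**
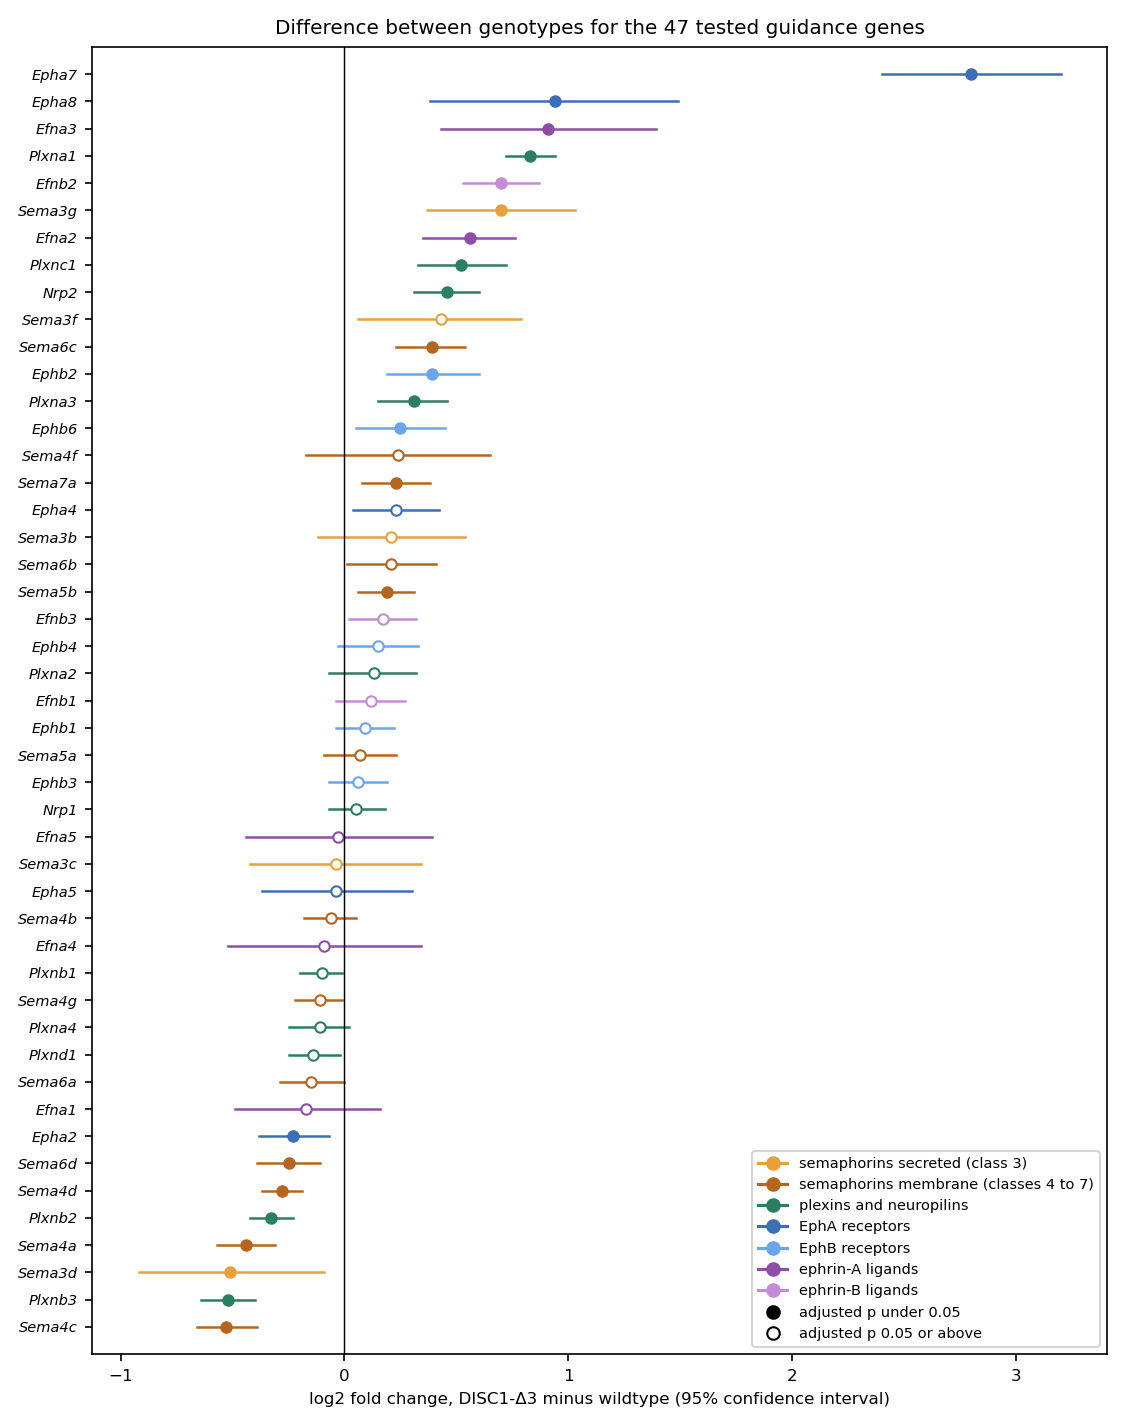
Log2 fold change, DISC1-Δ3 minus wildtype, of the 47 tested guidance genes from edgeR, with 95% confidence intervals, coloured by family; filled points passed an adjusted p of 0.05. Epha7 stands apart at 2.80, and the lower end is made of Sema4c, Plxnb3, Sema3d and Sema4a.

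Epha7, a receptor for ephrin-A ligands, had the largest difference of the 47. It took 24, 17 and 21 reads in the wildtype libraries (0.35, 0.22 and 0.22 RPKM) and 139, 149 and 172 in the DISC1-Δ3 libraries (2.04, 1.89 and 2.01 RPKM). The groups were far apart relative to their own spread, and the log2 fold change was 2.80 ± 0.189 (SE; 6.95-fold; adjusted p = 1.98e-09, edgeR). Epha8, a second receptor of the A class, was at 0.35, 0.19 and 0.35 RPKM in wildtype and at 0.68, 0.54 and 0.58 in DISC1-Δ3. These rest on 22, 14 and 26 reads against 44, 40 and 42, without overlap. Its log2 fold change was 0.94 ± 0.264 (adjusted p = 0.00898, edgeR), but without wildtype replicate 2, the lowest library, it was 0.68 with an adjusted p of 0.0616. Of 10 neuronal markers 8 were higher in the same libraries and Gad1 and Gad2 did not pass (-0.11 and -0.25), with a median log2 fold change of 0.44 and none at 0. Of 10 pericyte and smooth muscle markers 8 were higher (median 0.39). Of 10 OPC markers 6 were higher and 1 lower (0.38), and of 10 endothelial markers 4 were higher and 1 lower (0.12). The part of these cell types in the 2 rises was not tested.

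Both genes lie on chromosome 4 (GRCm38, the mm10 build of the submitters' notes), Epha7 at chr4:28813066-28967503 on the plus strand and Epha8 at chr4:136929419-136956859 on the minus strand. They had the 2 largest log2 fold changes among the 47 tested guidance genes, counting those that passed, within the limits just given for Epha8 and for the minimum. Efna3 came close at 0.91 ± 0.229, and without wildtype replicate 1 it stood above Epha8 (1.22 against 1.07). In an edgeR fit without the minimum, the untested Epha10 also stood above Epha8 (1.06 against 0.93). The sequence before the starts of Epha7 and Epha8 is shown, written 5′ to 3′ on the strand of the gene. It comes from chr4:28812881-28813065 and chr4:136956860-136957066 of the RefSeq promoter table (GRCm38.p6). Capitals mark ATTGG, the reverse complement of the CCAAT box, a motif chosen after the sequences were read.
Epha7: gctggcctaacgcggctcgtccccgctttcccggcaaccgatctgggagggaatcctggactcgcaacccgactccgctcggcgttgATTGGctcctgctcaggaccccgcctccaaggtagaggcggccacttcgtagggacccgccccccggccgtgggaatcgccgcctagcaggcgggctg
Epha8: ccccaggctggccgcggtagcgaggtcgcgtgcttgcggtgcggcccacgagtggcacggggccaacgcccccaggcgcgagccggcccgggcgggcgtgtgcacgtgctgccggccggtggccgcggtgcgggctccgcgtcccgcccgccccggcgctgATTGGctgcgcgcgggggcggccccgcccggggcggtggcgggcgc
The capitals start at base 88 of the Epha7 stretch and at base 162 of the Epha8 stretch. Each stretch stops at the outermost start of the gene, and the 300-base windows of the promoter table run past it. The Epha7 window that opens with the printed stretch holds a second ATTGG there, at base 257. In the table's windows, which run from 250 bases before to 50 after a transcript start, CCAAT on either strand was held by 20 of 61 windows of 47 guidance genes (32.8%) and by 12289 of 32851 windows in all (37.4%). The core bound by TCF/LEF factors, written CTTTGAA, searched also as the variant CTTTGAT and as the variant CTTTGTT, all on either strand, was held by 6 of the 61 (9.84%) and by 4558 of all windows (13.9%). Neither the Epha7 nor the Epha8 window held such a core. The windows were rich in G and C, at 67.0% with 28 CpG in Epha7 and 84.3% with 56 CpG in Epha8, against medians of 64.0% and 20 for guidance genes and 52.7% and 7 for all windows.

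The other EphA receptors were low or moved less. Epha2, the most abundant of the class and a receptor that also signals without ligand, had 9.95, 8.78 and 9.14 RPKM in wildtype against 8.53, 8.80 and 8.10 in DISC1-Δ3. The groups overlapped narrowly, and the log2 fold change was -0.23 (adjusted p = 0.0203, edgeR), with adjusted p = 0.0899 without wildtype replicate 1 and 0.0533 without wildtype replicate 3. Epha4, which binds ephrins of both classes, had 3.2, 2.88 and 2.83 RPKM in wildtype against 3.53, 3.42 and 4.01 in DISC1-Δ3. Its log2 fold change of 0.23 (95% confidence interval 0.04 to 0.42) missed the threshold at adjusted p = 0.0523 in edgeR and passed at 0.0393 without wildtype replicate 1. Epha5 differed by -0.04 (-0.37 to 0.30).

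Epha10, which lacks an active kinase, was left out by the minimum although its groups did not overlap. It had 12, 18 and 20 reads in wildtype against 39, 34 and 38 in DISC1-Δ3, or 0.18, 0.22 and 0.24 against 0.57, 0.42 and 0.49 RPKM. In an edgeR fit without the minimum its log2 fold change was 1.06 (adjusted p = 0.00273). Epha1, Epha3 and Epha6 stayed at or below 0.48 RPKM in every library and did not pass in that fit. Summed over the 9 genes, EphA RPKM was 15.9, 13.9 and 14.9 in wildtype against 17.2, 16.7 and 17.7 in DISC1-Δ3, and Epha2 made up 62.3% of the wildtype and 49.3% of the DISC1-Δ3 sum.

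EphB receptors, the partners of the ephrin-B ligands, had a higher summed level than the EphA class. Of the 5 genes 2 passed, both higher (40.0%, background 39.9% in either direction). Ephb1 had 14, 14.3 and 14.8 RPKM in wildtype against 16.8, 16.8 and 15 in DISC1-Δ3. Ephb3 had 12.9, 12.7 and 12.4 against 13.6, 14.4 and 14 RPKM. For both the RPKM did not overlap, yet the log2 fold changes were 0.09 (-0.04 to 0.22) and 0.06 (-0.07 to 0.19) and did not pass. RPKM carries no TMM scaling between libraries, which the test on counts used. Ephb2 rose by 0.39 (adjusted p = 0.00345, edgeR) and Ephb6, whose kinase is inactive, by 0.25 (adjusted p = 0.0428). The Ephb6 call was lost without wildtype replicate 2 (adjusted p = 0.0996), wildtype replicate 3 (0.161), DISC1-Δ3 replicate 1 (0.190) or DISC1-Δ3 replicate 2 (0.106). Ephb4 did not pass at 0.15 (-0.03 to 0.33). Ephb1 passed when DISC1-Δ3 replicate 3 was left out, at 0.15 and adjusted p = 0.0386, and with library totals alone, at 0.17 and adjusted p = 0.0298.

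Of the 8 ephrins 3 passed (37.5%, background 39.9% in either direction), each of them higher (background 20.4%). Efna3 stood at 2.28, 1.13 and 1.12 RPKM in wildtype and at 3.62, 2.50 and 2.85 in DISC1-Δ3, from 46, 30 and 32 against 78, 70 and 68 reads. Wildtype replicate 1 was close to the lowest DISC1-Δ3 library, without overlap, and the log2 fold change was 0.91 ± 0.229 (adjusted p = 0.00406, edgeR). Efna2, the most abundant ephrin-A, had 7.00, 7.16 and 5.94 RPKM in wildtype against 10.1, 10.5 and 10.7 in DISC1-Δ3, a log2 fold change of 0.56 ± 0.0969 (adjusted p = 0.000169, edgeR). Efnb2, a ligand of EphB receptors and of Epha4, had 5.19, 5.44 and 4.76 RPKM against 8.08, 8.82 and 9.54. Here too the groups were apart, with a log2 fold change of 0.70 ± 0.0806 (adjusted p = 1.66e-06, edgeR).

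Among the other ephrins, Efna1 had 4.11, 3.76 and 3.61 RPKM in wildtype against 3.66, 3.42 and 3.72 in DISC1-Δ3, and its log2 fold change was -0.17 (-0.49 to 0.16). Efnb3, the most abundant ephrin, had 18.5, 20.8 and 21.5 against 22.8, 26.3 and 23.5 RPKM, with a log2 fold change of 0.17 and adjusted p = 0.0643 in edgeR, which became 0.0225 without DISC1-Δ3 replicate 3. Efnb1 had 15.4, 15.2 and 13.3 against 18, 16.3 and 16 RPKM, a log2 fold change of 0.12 (-0.04 to 0.27). Efna4 differed by -0.09 and Efna5 by -0.03. Efna1, Efna3 and Efna4 lie side by side on chromosome 3, with 32.9 kb between Efna1 and Efna3 and 10.5 kb between Efna3 and Efna4, and of the 3 only Efna3 passed. Without TMM scaling, the summed RPKM of ephrins did not overlap between genotypes, with 55.5, 56.8 and 53.9 in wildtype against 68.9, 71.0 and 70.4 in DISC1-Δ3. Neither did that of Eph receptors, with 54.9, 51.4 and 53.1 against 62.3, 61.3 and 60.3.

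**Figure D2:**
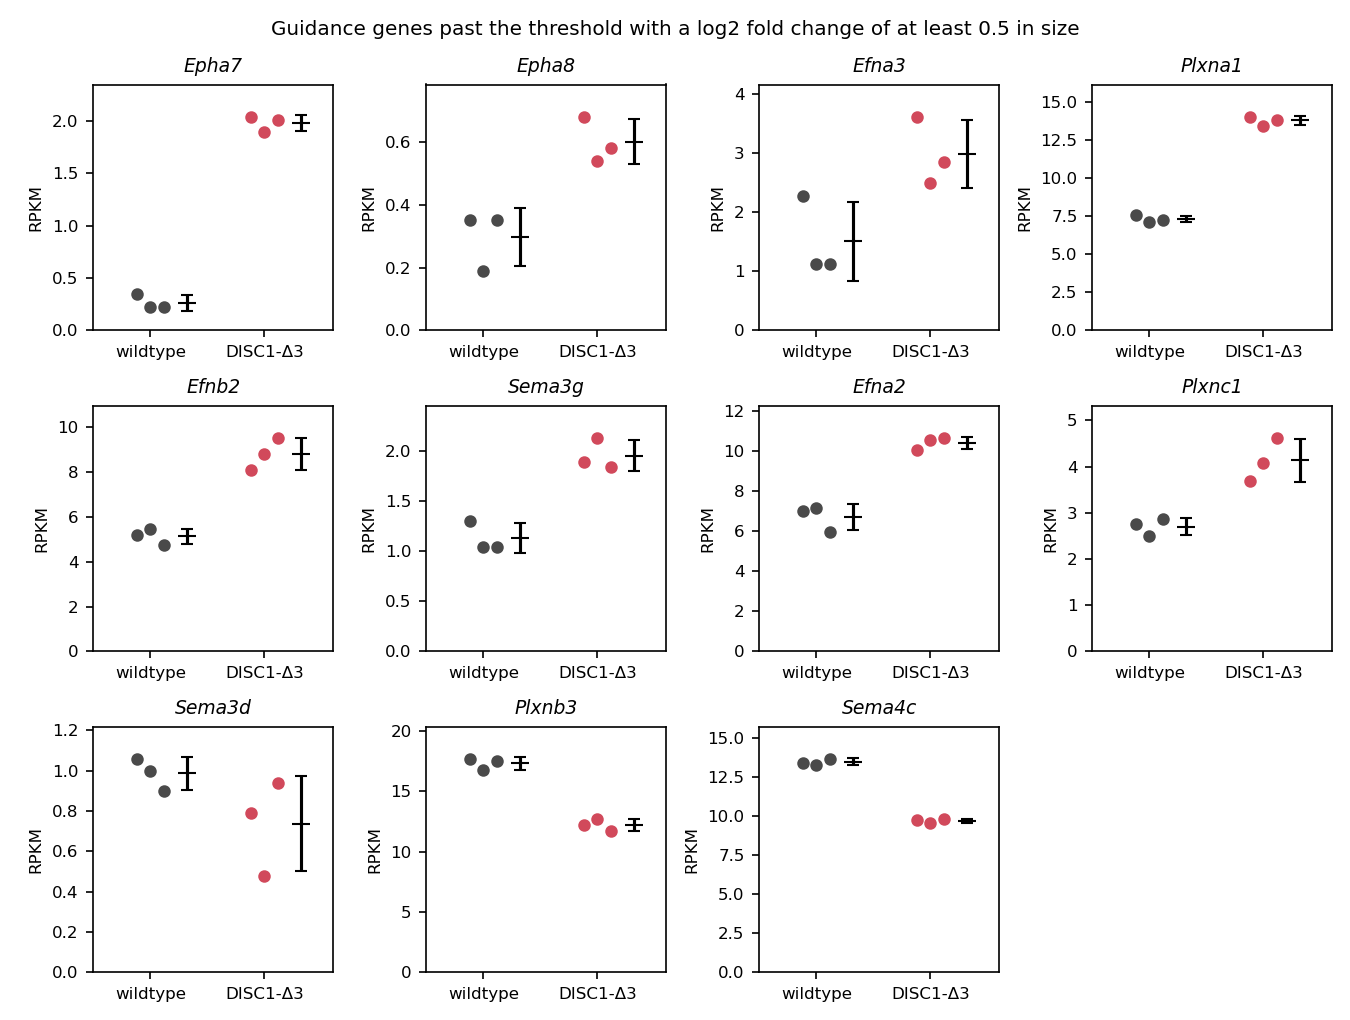
RPKM of the 11 guidance genes that passed and differed by 0.5 log2 units or more, per library (points), with mean and SD (n = 3) beside them; each axis starts at 0. The genotypes do not overlap in 10 panels, and in Sema3d DISC1-Δ3 replicate 3 lies among the wildtype libraries.

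Of the 11 plexins and neuropilins, the receptors for semaphorins, 6 passed (54.5%, background 39.9%). The 4 higher made up 36.4% of the 11 (background 20.4%) and the 2 lower 18.2% (background 19.5%). Plxna1, a class A plexin that pairs with neuropilins and also binds class 6 semaphorins, had 7.56, 7.14 and 7.25 RPKM in wildtype against 14, 13.4 and 13.8 in DISC1-Δ3. The libraries of each genotype lay close together, and the log2 fold change was 0.83 ± 0.0506 (1.78-fold; adjusted p = 5.12e-10, edgeR). Plxnc1, the receptor of Sema7a, had 2.75, 2.49 and 2.86 RPKM against 3.70, 4.08 and 4.63. It rose by 0.52 ± 0.0926 (adjusted p = 0.000203, edgeR). Plxna3, which takes part in class 3 signalling with Nrp2, rose by 0.31 (adjusted p = 0.00282).

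Nrp2, which binds Sema3f and Sema3g, had 5.64, 5.57 and 5.13 RPKM in wildtype against 8.20, 8.37 and 8.14 in DISC1-Δ3, and rose by 0.46 (adjusted p = 3.61e-05, edgeR). Its relative Nrp1, the Sema3a receptor, did not pass at 0.05 (-0.07 to 0.18), with 13.5, 12.6 and 12.6 RPKM in wildtype against 14.2, 12.7 and 15.5 in DISC1-Δ3. The length that reads, totals and RPKM imply for Nrp2 was 6088, 6080 and 6004 bases in wildtype against 5819, 5856 and 5793 in DISC1-Δ3, a change of -3.9%. The ratio of mean RPKM was 0.60 on the log2 scale and the TMM-scaled counts gave 0.46. Both the length and the TMM scaling enter this gap. For Plxna1, with mean implied lengths of 8885 bases in wildtype and 8884 in DISC1-Δ3, the 2 values were 0.91 and 0.83. Of 34 genes with at least 100 reads in every library, 27 differed by at most 1% in this length, and besides Nrp2 only Plxnb3 (4.5%) and Sema6a (2.2%) differed by over 2% without overlap.

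Class B plexins, which bind class 4 and 5 semaphorins, held most of the plexin RNA. Plxnb2 had 176, 165 and 165 RPKM in wildtype against 148, 139 and 139 in DISC1-Δ3, and made up 55.4% and 49.8% of the plexin and neuropilin sum. It did not overlap between genotypes and fell by 0.33 on the log2 scale (adjusted p = 1.25e-05, edgeR). Plxnb3, a receptor for Sema5a, fell from 17.7, 16.7 and 17.5 RPKM to 12.2, 12.7 and 11.7. Its log2 fold change was -0.52 ± 0.0562 (adjusted p = 7.66e-07, edgeR). Plxnb1, the Sema4d receptor, had 59.9, 56.7 and 55.4 RPKM in wildtype against 58.2, 56.8 and 52.7 in DISC1-Δ3. These overlapped, and the log2 fold change of -0.10 did not pass (adjusted p = 0.0848, edgeR; 0.0459 without DISC1-Δ3 replicate 1).

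The remaining plexins gave -0.14 for Plxnd1 (adjusted p = 0.0504, edgeR; 0.0141 without DISC1-Δ3 replicate 1), -0.11 for Plxna4 (-0.25 to 0.02) and 0.13 for Plxna2 (-0.07 to 0.32). Plxnb3 and Plxna3, 555.8 kb apart on the X chromosome, differed in opposite directions. Summed over plexins and neuropilins, RPKM without TMM scaling was 318, 297 and 296 in wildtype against 294, 281 and 281 in DISC1-Δ3.

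**Figure D3:**
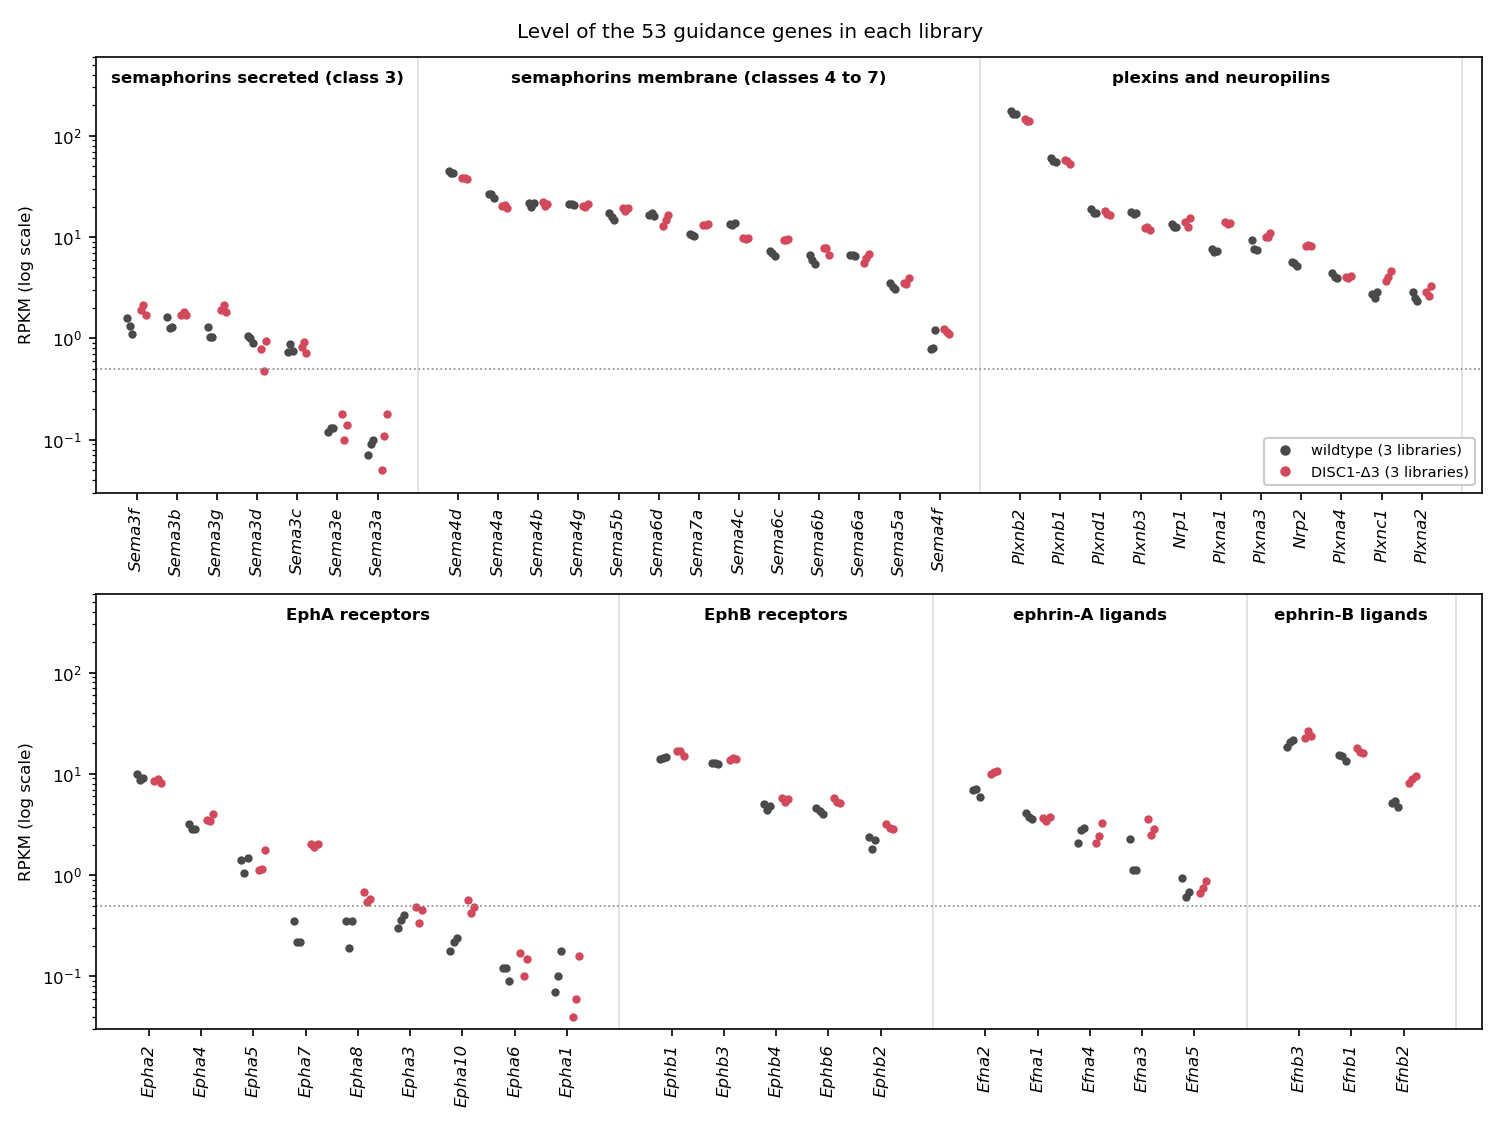
RPKM (log scale) of all 53 guidance genes in each of the 6 libraries, by family and in order of mean level; the dotted line marks 0.5 RPKM. Plxnb2 is highest, and class 3 semaphorins and EphA receptors hold the genes below the line.

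Class 3 semaphorins, the secreted ligands, were the least abundant of the semaphorins. Sema3g, a ligand of Nrp2 and a marker of arterial endothelium, had 1.30, 1.04 and 1.04 RPKM in wildtype against 1.89, 2.13 and 1.84 in DISC1-Δ3. It rose without overlap by 0.70 ± 0.154 (adjusted p = 0.00149, edgeR). Sema3f, an attractant of OPCs that acts through Nrp2, had 1.58, 1.34 and 1.10 RPKM against 1.93, 2.16 and 1.70. Its groups were apart, but the log2 fold change of 0.43 (0.06 to 0.79) missed the threshold at adjusted p = 0.0580 in edgeR, and passed at 0.0202 without DISC1-Δ3 replicate 3. Sema3b, with 1.64, 1.26 and 1.29 RPKM against 1.71, 1.81 and 1.71, gave 0.21 (-0.12 to 0.54).

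Sema3d had 1.06, 1.0 and 0.9 RPKM in wildtype against 0.79, 0.48 and 0.94 in DISC1-Δ3, with overlap. Its log2 fold change was -0.51 ± 0.196 (adjusted p = 0.0487, edgeR), the weakest call of the 23. It was lost under 9 alternatives, and without DISC1-Δ3 replicate 2, the lowest library, it was -0.28 (adjusted p = 0.219). Without wildtype replicates 1, 2 and 3 in turn the adjusted p was 0.151, 0.119 and 0.0714. Sema3c gave -0.04 (-0.42 to 0.34). Sema3a and Sema3e, a repellent of OPCs and the ligand of Plxnd1, stayed at or below 0.18 RPKM in every library.

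Class 4 semaphorins are membrane proteins, and the 3 of 6 that passed (50.0%, background 39.9% in either direction) were lower (background 19.5%). Sema4c, the ligand of Plxnb2, had 13.4, 13.3 and 13.7 RPKM in wildtype against 9.74, 9.55 and 9.84 in DISC1-Δ3. The libraries of each genotype were tightly grouped, and the log2 fold change was -0.53 ± 0.0634 (adjusted p = 2.93e-06, edgeR). Sema4a, with roles in immune cells as well as in glia, had 26.8, 26.6 and 24.3 RPKM against 20.5, 20.9 and 19.2, and fell by 0.44 on the log2 scale (adjusted p = 1.38e-05, edgeR). Sema4d, the most abundant semaphorin and the ligand of Plxnb1, had 44.9, 43.4 and 42.7 RPKM against 38.0, 38.7 and 37.8. It too was lower without overlap, at -0.28 (adjusted p = 7.08e-05, edgeR). The 14 microglial markers were lower in the same libraries, with a median log2 fold change of -0.46 and none at 0. So were 6 of 9 tested mature oligodendrocyte markers (median -0.45) and 5 of 7 of newly formed oligodendrocytes (-0.27), with none higher. Of 10 astrocyte markers 6 were lower and 2 higher (-0.18). The part of these cell types in these falls and in those of class B plexins was not tested. Sema4b gave -0.06 (-0.18 to 0.05), Sema4f 0.24 (-0.17 to 0.65), and Sema4g -0.11 (adjusted p = 0.0867, and 0.0270 without DISC1-Δ3 replicate 3).

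In the other membrane classes the differences were small and mixed. Sema6c rose by 0.39 (adjusted p = 0.000469, edgeR), from 7.25, 6.98 and 6.57 RPKM to 9.45, 9.43 and 9.64. Sema6d, a ligand of Plxna1, gave -0.25 (adjusted p = 0.00496), with 16.6, 17.4 and 16.1 RPKM against 13.0, 14.9 and 16.4, so that DISC1-Δ3 replicate 3 lay among the wildtype libraries. Sema5b rose by 0.19 (adjusted p = 0.0186, edgeR) and Sema7a, which is held by a lipid anchor, by 0.23 (adjusted p = 0.0148). Both calls were lost without wildtype replicate 2 (adjusted p = 0.0691 and 0.0614) or wildtype replicate 3 (0.116 and 0.0560). Sema5b also lost it without DISC1-Δ3 replicate 1 (0.1), and Sema7a without DISC1-Δ3 replicate 2 (0.105).

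Sema5a, the Plxnb3 ligand, gave 0.07 (-0.09 to 0.23). Sema6a at -0.15 (-0.29 to 0.00) and Sema6b at 0.21 (0.01 to 0.41) did not pass, with adjusted p = 0.114 and 0.0841 in edgeR. Without DISC1-Δ3 replicate 3 both did, at 0.0133 and 0.00723. The summed RPKM of membrane semaphorins overlapped between genotypes, with 197, 192 and 187 in wildtype against 184, 183 and 187 in DISC1-Δ3, while that of class 3 was 6.51, 5.75 and 5.32 against 7.37, 7.72 and 7.23. Such sums carry no TMM scaling, whose factors were 0.97 to 0.974 in wildtype and 1.02 to 1.04 in DISC1-Δ3. Scaled values would lie lower in DISC1-Δ3 relative to wildtype, so the overlap can differ.

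**Figure D4:**
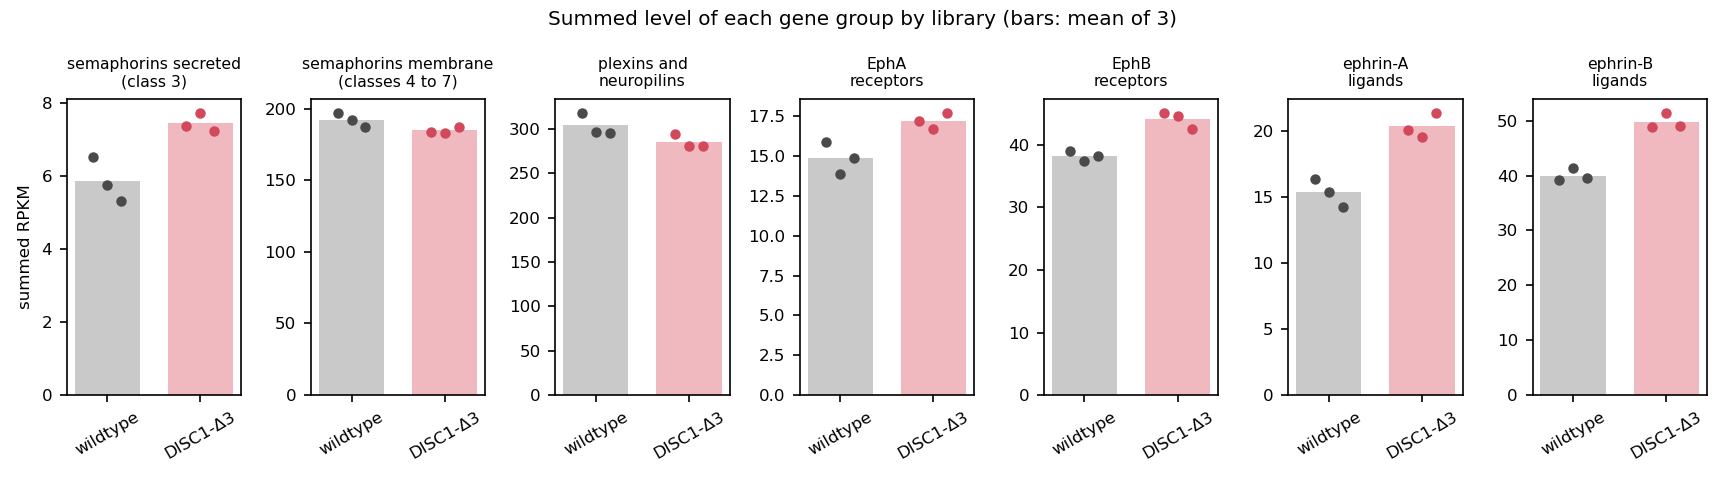
Summed RPKM of each gene group per library (points) and its mean (bars, n = 3), each axis from 0. The 2 ephrin groups, both Eph groups and class 3 semaphorins are higher in DISC1-Δ3 without overlap, plexins and neuropilins are lower without overlap, and membrane semaphorins overlap. RPKM carries no TMM scaling, which would lower DISC1-Δ3 relative to wildtype.

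Downstream of the receptors, 50 transducers and co-receptors were tested, and 27 passed (54.0%, background 39.9%), 14 higher (28.0%, background 20.4%) and 13 lower (26.0%, background 19.5%), with a median log2 fold change of -0.04. Among those with a change of at least 0.5 in size, L1cam, an adhesion molecule that takes part in Sema3a and Nrp1 signalling, had 3.32, 2.74 and 2.88 RPKM in wildtype against 6.50, 6.23 and 6.92 in DISC1-Δ3, a log2 fold change of 1.05 (adjusted p = 2.77e-08, edgeR). Nck2, an adaptor used by Eph receptors and ephrin-B, rose by 0.64 (adjusted p = 0.000216) and Dpysl3, a collapsin response mediator, by 0.53 (adjusted p = 3.89e-08, edgeR). Fes, a kinase that acts below class A plexins and is abundant in myeloid cells, had 69.2, 61.2 and 61.2 RPKM against 46.5, 44.1 and 43.2 and fell by 0.59 on the log2 scale (adjusted p = 8.47e-08, edgeR).

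In the other axon guidance families, Slit, Robo, netrin and RGM, 11 of 20 tested genes passed (55.0%, background 39.9%). Of these 10 were higher (50.0%, background 20.4%) and 1 lower (5.0%, background 19.5%). The median log2 fold change of the 20 was 0.35. The 10 include Ntng1 and Unc5d, which reached the minimum in DISC1-Δ3 libraries only and so could enter the test only as genes higher there. Netrin-G genes, whose products are held to the membrane by a lipid anchor, led them. Ntng1 had 0.30, 0.36 and 0.20 RPKM in wildtype against 1.34, 1.66 and 1.81 in DISC1-Δ3, a log2 fold change of 2.38 (adjusted p = 1.26e-07, edgeR), and Ntng2 7.03, 6.91 and 5.43 against 17.9, 17 and 18, a log2 fold change of 1.37 (adjusted p = 4.99e-09). The netrin receptors Unc5d, Unc5a and Dcc gave 1.2, 0.61 and 0.59 (adjusted p = 2.98e-05, 0.000355 and 0.00229, edgeR). The Slit receptor Robo1 gave 0.75 (adjusted p = 6.35e-08, edgeR), and the ligand Ntn1 gave 0.51 (adjusted p = 9.23e-06). The 1 lower gene was the netrin and RGM receptor Neo1 at -0.15 (adjusted p = 0.0151, edgeR), with adjusted p = 0.0642 when wildtype replicate 1 was left out and 0.0620 for DISC1-Δ3 replicate 2. Of 10 neuronal markers 8 were higher in the same libraries and Gad1 and Gad2 did not pass (median log2 fold change 0.44). Of 10 pericyte and smooth muscle markers 8 were higher (0.39), and of 10 OPC markers 6 were higher and 1 lower (0.38). The part of these cell types in the 10 rises was not tested.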

How the data were processed

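mRNA from Pdgfrα-immunopanned OPCs was sequenced (single-end, 6 libraries). The authors deposited 1 table of 18211 genes, which gives per library each gene's expected count and its RPKM. The authors' counting program and annotation are not given in the sources used here, nor is its strand setting, so overlapping antisense genes cannot be told apart. The submitters' processing notes list Bowtie2 2.2.5 and mm10. The deposited expected counts are estimates, 90.2% of those above 0 being whole, and the deposited RPKM carries no scaling between libraries. The 4 average columns were not used.

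Expected counts were rounded and fitted by genotype with edgeR 4.0.16 in R 4.3.3, with TMM scaling and the quasi-likelihood test, over the 13792 genes that reached 0.5 RPKM in 3 or more libraries. P-values are two-sided, adjusted by the Benjamini-Hochberg method over those genes, with a threshold of 0.05. SE is the size of the log2 fold change over the root of F, and intervals are at 95%. The reads carry no molecular identifiers, so intervals cover counting error and library spread, not PCR copies. The members and lists were chosen with earlier results of these data known. Values per library with full statistics were given for called guidance genes that differed by 0.5 log2 units or more, and RPKM per library for the 2 most abundant genes of each group. Other members could be named with a value; Nrp2, Nrp1, Sema6c, Sema6d and Epha10 were chosen for values per library after these had been seen. Of the transducers and other families, called genes with a change of 0.5 or more were named, and Neo1 besides. All 53 members matched the RefSeq gene table (GRCm38.p6) by gene ID. Plxna1, Plxna4, Sema3b, Sema6a, Sema3f and Efnb3 had no promoter entry.

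Alternatives were median-of-ratios scaling, library totals alone, no minimum, a minimum of 1 RPKM, DESeq2 1.42.0 (the tool of the study's methods), limma 3.58.1 on log2(RPKM + 1) and log2(RPKM + 0.1), the replicate number as a block, and each library left out. In a test on simulated data for this comparison over 13792 genes, edgeR recovered 95 of 100 genes changed 1.5-fold and 100 of 100 changed 3-fold, with 18 false calls of 213. The 200 changed genes were drawn above a read minimum, rises and falls were balanced, and every gene had the same dispersion. The simulation thus does not cover genes with few reads, such as Epha8, nor changes as widespread as those called here. Chi-square per degree of freedom between replicates was 1.81 to 2.92 in wildtype and 2.65 to 5.24 in DISC1-Δ3, the 2 highest values with DISC1-Δ3 replicate 3.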

Additional observations from a re-analysis of the deposited data

How the results depend on the processing

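Of the 23 called guidance genes 16 kept their call under all 14 alternatives, 11 higher and 5 lower. The others were Sema3d, Epha8, Ephb6, Sema5b, Sema7a, Epha2 and Sema6d. Scaling by library totals alone moved the median log2 fold change of all genes from 0.007 to 0.09 and the share of higher calls from 51.1% to 69.1% (69.2% in both limma fits). With library totals 27 guidance genes passed, 22 higher and 5 lower, and with limma at either pseudocount 23 passed, 18 higher and 5 lower. Of all 13792 genes 5958 passed with library totals, and 5757 and 5728 in the limma fits, against 5498 in the main fit. Sema3d, Epha2 and Sema6d lost their lower call in all 3 alternatives. Under the same 3 fits the lower transducers were 5 rather than 13, and lower Slit, Robo, netrin and RGM genes 0 rather than 1, with 0 lower at an unadjusted p of 0.05 as well. Neo1 then had adjusted p = 0.237 with edgeR on library totals and 0.335 and 0.334 in limma. DESeq2 called 21 guidance genes, without Sema3d (adjusted p = 0.0752) and Ephb6 (0.119), and 4600 of all genes. A pseudocount of 1 compresses low values: in limma on log2(RPKM + 1) the differences were 1.24 for Epha7, 0.3 for Epha8, -0.2 for Sema3d, 1.01 for Ntng1, 0.38 for Unc5d and 0.31 for Dcc, and of these only Sema3d lost its call.

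Leaving out 1 library at a time gave 18 to 29 guidance calls, 11 to 19 higher and 6 to 10 lower. The 29 came without DISC1-Δ3 replicate 3, and 18 without wildtype replicate 2 or 3. Calls over all 13792 genes moved too, from 4342 without wildtype replicate 2 to 6232 without DISC1-Δ3 replicate 3, against 5498 with every library. Transducers lower ran from 6 to 13, the lowest without wildtype replicate 1 and 7 without wildtype replicate 2, and lower Slit, Robo, netrin and RGM genes from 0 to 1. Without the low-value minimum 24 of 53 passed, beside 5753 of all 18172 genes in that fit.

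The replicate numbers did not pair the libraries: deviations of same-numbered libraries correlated at 0.04, 0.03 and -0.03, and wildtype replicate 3 correlated best with DISC1-Δ3 replicate 2 (0.03). With the replicate block 25 guidance genes passed, 16 higher and 9 lower, beside 5429 of all 13792 genes. Sema3d then had adjusted p = 0.0614. At 14 to 46 reads a library, as in wildtype Epha7, Epha8 and Efna3, counting error is a large share of a value.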
